A study of Mus musculus with 18 samples.

Results

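*Plet1* and 9 genes used to follow trophoblast cells were examined in RNA-seq libraries of mouse ES cells with and without *Kdm6a*. The 10 genes were taken as a fixed list of symbols (*Plet1*, *Cdx2*, *Elf5*, *Hand1*, *Ascl2*, *Gata3*, *Tfap2c*, *Krt8*, *Krt18* and *Krt19*). The list was chosen with earlier results of these data known. All 10 were found among the 24346 gene symbols of the files. *Tsix*-stop cells are female ES cells from a cross of a laboratory strain with *Mus castaneus* (*cast*) mice, and wt, CRISPR control and KO cells of this line all carry a transcription stop in *Tsix* on the X chromosome that is not from *cast*. Their KO clones are homozygous for a CRISPR/Cas9 deletion reaching from exon 2 into exon 4 of *Kdm6a*. By the methods, the CRISPR control is 1 clone that went through the same treatment without a deletion. E8 cells are female ES cells from a cross of BL6 and *cast* mice without the *Tsix* insertion, and their KO is 1 clone in which the *Kdm6a* promoter was deleted. ES cells were grown with LIF on inactivated mouse embryonic fibroblasts, and differentiation was started by withdrawing LIF and culturing the cells as embryoid bodies (EBs). By the methods, the cells were plated on gelatin after D7 and grown attached until D15, so changes up to D15 also span this step. Cultures of D15 are still called EBs here. The *Tsix*-stop libraries were 2 wt, 2 KO and 1 CRISPR control at D0, when the cells are undifferentiated, and the same number at D15. The E8 libraries were 2 wt and 2 KO at D7 and at D15 by GEO's labels, which were followed, although the methods describe other days for this line. The methods name 2 KO clones of *Tsix*-stop cells, and the labels do not say which clone a library came from.

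Trophoblast is the outer cell layer of the blastocyst, which builds most of the placenta and does not normally arise from mouse ES cells. PLET1 is a protein of the cell surface that is present in early placental progenitors. CDX2, ELF5, GATA3 and TFAP2C are transcription factors of trophoblast stem cells, HAND1 drives the formation of giant cells and ASCL2 keeps the precursors of the spongiotrophoblast. KRT8, KRT18 and KRT19 are keratins of simple epithelia, including trophoblast and endoderm. Each of these factors also has roles outside trophoblast (CDX2 in posterior mesoderm and gut, HAND1 in extraembryonic and cardiac mesoderm, TFAP2C in germ cells), so none marks trophoblast alone. KDM6A removes methyl groups from lysine 27 of histone H3 and is tied to the activation of developmental genes.

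*Plet1* and *Ascl2* were the 2 members with lower values in KO than in wt libraries on both days of both lines, and the 250 bases before their RefSeq starts (build GRCm38.p6) are shown for that reason. The *Plet1* sequence lies on the plus strand at chr9:50494275-50494524, and the *Ascl2* sequence on the minus strand at chr7:142969265-142969514. Both are written 5′ to 3′ in the direction of the gene, with matches to the motifs searched in capitals.
Plet1: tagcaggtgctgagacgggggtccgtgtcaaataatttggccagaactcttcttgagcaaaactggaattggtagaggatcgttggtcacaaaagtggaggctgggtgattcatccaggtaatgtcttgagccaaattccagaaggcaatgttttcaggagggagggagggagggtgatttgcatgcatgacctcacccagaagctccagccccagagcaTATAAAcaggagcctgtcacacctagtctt
Ascl2: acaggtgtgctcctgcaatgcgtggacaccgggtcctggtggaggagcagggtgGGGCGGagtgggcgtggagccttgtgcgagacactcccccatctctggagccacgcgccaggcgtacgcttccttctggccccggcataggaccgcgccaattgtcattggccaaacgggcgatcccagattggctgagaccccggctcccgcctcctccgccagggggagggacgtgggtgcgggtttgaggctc
The motifs named here were searched on both strands, and no matches in the sequences shown overlapped. *Plet1* held 1 copy of TATAAA, the TATA box, starting 30 bases before the start, and 12.4% of the 32851 promoters of the same length hold this motif. *Ascl2* held 1 copy of GGGCGG, the GC box, which is in 32.7% of promoters. The share of G plus C in the *Ascl2* sequence was 67.6%, against a median of 52.4% over all promoters. Promoters of 7 members were in the RefSeq table, and among these *Gata3* held 2 copies of the GC box. The motif GCCNNNGGC, read by AP-2 factors such as TFAP2C, had 3 matches in *Gata3* and 1 each in *Cdx2* and *Krt18*, and is in 13.7% of promoters. The motif AGATAA, read by GATA factors, had 1 match in *Krt8* and is in 9.99% of promoters. The AP-1 motif TGACTCA was in none of the 7 and is in 4.46% of promoters. A match describes the letters only.

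On the same build, *Plet1* (ENSMUSG00000032068.14) spans chromosome 9, 50494525 to 50505482, on the plus strand. The antisense gene *Plet1os* overlaps it, and the library kit does not mark strand, so reads from the 2 genes cannot be told apart. *Plet1os* was given 0 to 4 counts in every *Tsix*-stop library, against 20 to 2403 for *Plet1*. *Krt8* (chromosome 15, 101996698 to 102004482, minus strand) and *Krt18* (102028180 to 102032027, plus strand) are neighbours, with 23698 bp between them. *Gata3* (chromosome 2, 9857078 to 9890034, minus strand) is overlapped by *4930412O13Rik* and *9230102O04Rik*, so its counts are uncertain in the same way. *Krt8* also has a pseudogene copy in the annotation, and reads that the 2 share could have been split between them. In the annotation *Gm36026* overlaps *Krt8* and *Gm13256* overlaps *Gata3*, and neither of these was among the counted genes.

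The *Tsix*-stop libraries held 51091152 to 68796179 counts, and values are given as CPM, read counts scaled to library size by TMM, or as TPM where levels of different genes are compared. The E8 files hold TPM only, so their depth is unknown. The 2 E8 libraries of a group differed by a median of 0.038 to 0.057 on the log2 scale, against 0.165 to 0.227 in *Tsix*-stop cells. The methods name 1 wt control and 1 KO clone for E8, so p-values there may measure technical spread only. *Kdm6a* was at 46.7 to 47.8 TPM in E8 wt libraries and at 0.00578 to 0.0319 TPM in E8 KO libraries. In *Tsix*-stop cells *Kdm6a* was at 54.2 and 85.7 TPM in wt libraries and 55.6 and 21.2 TPM in KO libraries of D0, and at 64.3 and 48.9 TPM in wt libraries and 41.7 and 12.8 TPM in KO libraries of D15. The paper reports that the homozygous KO clones kept some *Kdm6a* RNA, while KDM6A protein was not seen on western blots. The gene count also covers exons outside the deletion, so it does not check these labels. KO replicate 1 was nevertheless close to the CRISPR control, at 53.7 TPM on D0 and 43.6 TPM on D15, so results are also given without KO replicate 1 where it matters. The deposited files of the 2 CRISPR control libraries carry a KO name while GEO's labels call them controls. The labels were followed, and no fit that is reported as a main result includes these libraries.

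*Plet1* differed most between wt and KO *Tsix*-stop cells before differentiation. At D0 *Plet1* was at 8.29 and 9.14 CPM in the wt libraries, 0.331 and 0.514 CPM in the KO libraries and 0.923 CPM in the CRISPR control. The wt libraries stood apart from all 3 that had been through CRISPR/Cas9 treatment, and the CRISPR control lay 9.44-fold below the wt mean. That library is a control without a deletion by GEO's label, while its deposited name is that of a KO, and which holds was not tested. The mean of wt was 20.6-fold above that of KO (log2 fold change -4.35 ± 0.38, SE of the fit). *Plet1* was listed because of this difference, which is therefore given as a description with no test.

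After differentiation *Plet1* was higher in both genotypes. At D15 it was at 37.6 and 36.7 CPM in wt, 8.72 and 17.3 CPM in KO, with 16.8 CPM in the CRISPR control. Both KO libraries were below both wt libraries, and the CRISPR control lay between the KO libraries. The log2 fold change of KO against wt was -1.51 ± 0.30 (edgeR FDR 0.0066), and -1.10 without KO replicate 1 of D15 (FDR 0.013). From D0 to D15 the log2 fold change of *Plet1* was 2.09 ± 0.31 in wt and 4.93 ± 0.38 in KO, a difference of 2.84 ± 0.47, and the KO libraries still ended below those of wt. These 3 values include the D0 levels for which *Plet1* was listed, so they are a description with no test. Ordered by level, wt at D15 came first. The KO libraries and the CRISPR control at D15 and the wt libraries at D0 followed with overlapping values. The CRISPR control at D0 and KO at D0 came last.

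In E8 cells *Plet1* was at 19.1 and 18.7 TPM in wt and 9.49 and 9.37 TPM in KO at D7, and at 21.7 and 23.6 TPM in wt and 12.9 and 12.9 TPM in KO at D15. The KO libraries were below the wt libraries on both days, by less than 2-fold on the scale of the fit. The log2 fold change, on log2(TPM + 1), was -0.93 ± 0.046 at D7 (limma FDR 9.8e-07) and -0.76 ± 0.046 at D15 (FDR 4.7e-06), so *Plet1* passed the FDR but not the minimum of 2-fold on either day. With TMM-type scaling, which moved the median of all genes at D7 from 0.10 to -9.6e-04, the value at D7 was -1.04 and passed both. The change from D7 to D15 differed between genotypes by 0.17 ± 0.066 (FDR 0.059), under the minimum fold.

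**Figure D1:**
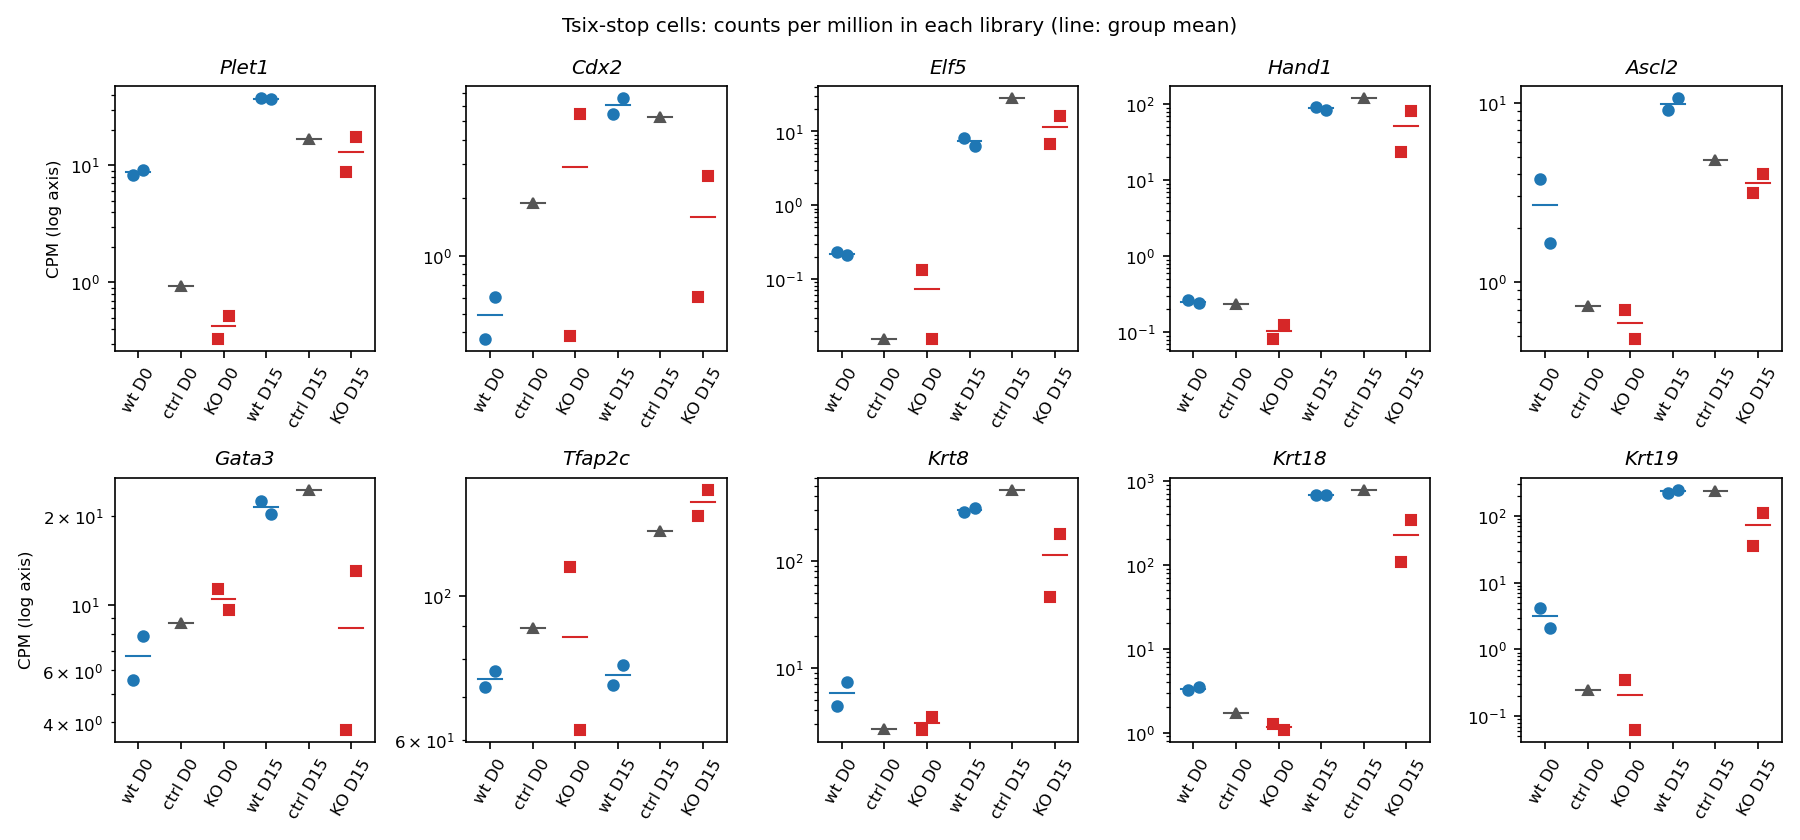
CPM (log axis) of the 10 genes in the 10 *Tsix*-stop libraries, in panels by gene, with wt in blue circles, KO in red squares, the CRISPR control in grey triangles and lines for group means. *Plet1* at D0 is at 8.29 and 9.14 CPM in wt and between 0.331 and 0.923 CPM in the other 3 libraries, and the keratins of the CRISPR control are near KO at D0 and near or above wt at D15.

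Of the 9 members other than *Plet1*, 3 were called lower at D0 in KO *Tsix*-stop cells (FDR of at most 0.1 and at least 2-fold) and none higher, against 4.98% of 13121 tested genes called lower. These were *Ascl2*, *Krt18* and *Krt19*. *Ascl2* was at 3.75 and 1.64 CPM in wt, 0.696 and 0.483 CPM in KO, with 0.735 CPM in the CRISPR control (log2 fold change of KO against wt -2.20 ± 0.42, FDR 0.014). Its wt libraries differed 2.29-fold from each other and still lay above every other library of that day.

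*Krt19* was at 4.23 and 2.12 CPM in wt, 0.348 and 0.0623 CPM in KO, with 0.250 CPM in the CRISPR control, with only 4 counts in the lower KO library (-3.97 ± 0.82, FDR 0.018). *Krt18* was at 3.24 and 3.45 CPM in wt, 1.26 and 1.07 CPM in KO, with 1.72 CPM in the CRISPR control (-1.52 ± 0.51, FDR 0.089). Both keratins were higher in wt than in the other 3 libraries. *Krt8*, the partner of KRT18 in filaments, was at 4.39 and 7.30 CPM in wt, 2.62 and 3.49 CPM in KO, with 2.69 CPM in the CRISPR control, and did not pass the test (-0.93 ± 0.57, FDR 0.32). 

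The other factors did not pass at D0. *Cdx2* was at 0.371 and 0.609 CPM in wt and 1.88 CPM in the CRISPR control, and its 2 KO libraries were at 0.381 and 5.42 CPM, a 14.2-fold difference within 1 group. *Elf5* had 15 and 12 counts in wt, 8 and 1 in KO, with 1 in the CRISPR control, and *Hand1* had 17 and 14 counts in wt, 5 and 8 in KO, with 15 in the CRISPR control, too few to measure a change. *Gata3* was at 5.59 and 7.85 CPM in wt, 11.3 and 9.65 CPM in KO, with 8.67 CPM in the CRISPR control (0.64 ± 0.46, FDR 0.41). *Tfap2c* was the member with the highest TPM before differentiation, with 72.4 and 76.7 CPM in wt, 111 and 62.2 CPM in KO, with 89.4 CPM in the CRISPR control (0.22 ± 0.23, FDR 0.57).

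The KO and wt libraries of D0 did not overlap for *Plet1* and 7 of the 9 other members, beside 57.2% of all tested genes. The CRISPR control was nearer to the KO mean than to the wt mean, on log2 CPM with 0.1 added, for *Plet1* and 8 of the 9 other members at D0, against 61.8% of all tested genes and 73.6% of those called between KO and wt. When the CRISPR control was counted as wt, edgeR left 0 of the 9 other members called at D0, with *Plet1* at -3.85 (no p, as above), *Ascl2* at -1.79 (FDR 0.34) and *Krt19* at -3.44 (FDR 0.30), and left 20 calls over all 13192 genes tested. Of these genes, 1575 had an unadjusted p under 0.05. A difference between KO and wt at D0 and one between CRISPR-treated clones and wt therefore cannot be told apart for these 3 genes. *Krt18* lost its call without any 1 of the wt libraries or of the KO libraries of D0 (FDR 0.14 to 0.27), and *Krt19* without wt replicate 1 of D0 (-3.39, FDR 0.10). Without KO replicate 1 of D0, *Cdx2* was called higher (3.46, FDR 0.022) and *Ascl2* (-2.49) and *Krt19* (-5.64) were still called lower. *Cdx2* (FDR 0.094 and 0.093) and *Hand1* (FDR 0.041 and 0.042) were also called at D0 when KO replicate 1 or 2 of D15 was left out of the joint fit, and *Cdx2* by DESeq2 (2.56, FDR 0.031) and without the filter on low counts (2.60, FDR 0.066).

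*Hand1* and the keratins differed most between the days in wt *Tsix*-stop cells. *Elf5* and *Hand1* had no library at the minimum of the filter on low counts (2.5 CPM in 2 libraries) at D0, and *Cdx2*, *Ascl2* and *Krt19* had 1, so these 5 entered the test through their D15 levels and their changes over time are a description with no test. Of the 4 remaining members besides *Plet1*, *Gata3*, *Krt8* and *Krt18* were called higher at D15 than at D0 in wt and *Tfap2c* was not, against 23.8% of tested genes called higher. *Hand1* went from 0.263 and 0.244 CPM at D0 to 92.5 and 84.5 CPM at D15 (log2 fold change 8.44 ± 0.66). *Krt18* went to 679 and 681 CPM (7.67 ± 0.54, edgeR FDR 8.6e-06), *Krt19* to 217 and 246 CPM (6.18 ± 0.63) and *Krt8* to 288 and 311 CPM (5.68 ± 0.62, FDR 6.7e-05). In TPM, which allows for gene length, *Krt18* was the highest member at D15 with a mean of 1810 ± 45.5 (SD, n = 2), followed by *Krt8* with 585 ± 17.1, *Krt19* with 477 ± 28.7 and *Hand1* with 170 ± 15.3.

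The remaining factors stayed at lower levels. At D15, *Elf5* was at 8.27 and 6.45 CPM in wt (change from D0 5.05 ± 0.61), *Cdx2* at 5.47 and 6.59 CPM (3.62 ± 1.09), *Ascl2* at 9.12 and 10.6 CPM (1.86 ± 0.39) and *Gata3* at 22.5 and 20.4 CPM (1.67 ± 0.47). *Tfap2c* was at 73.0 and 78.4 CPM, a difference from D0 of 0.023 ± 0.23 (FDR 0.94).

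In KO cells, of the same 4 members, *Krt18* (7.58 ± 0.56, FDR 2.2e-05) and *Krt8* (5.21 ± 0.62, FDR 2.0e-04) were called higher at D15 than at D0 and *Gata3* and *Tfap2c* did not pass, against 19.7% of tested genes called higher. The change in KO was 8.94 ± 0.72 for *Hand1*, 8.49 ± 0.79 for *Krt19* and 2.60 ± 0.43 for *Ascl2*, given with no test as above. *Elf5* went from 9 counts in all over the 2 KO libraries to 394 and 891 counts. The change of *Cdx2* in KO rested on 1 library: it was -0.87 ± 0.98 in the full fit, 2.05 without KO replicate 2 of D0 and -1.76 without KO replicate 1 of D0. *Gata3* was called lower without KO replicate 2 of D15 (-1.44, FDR 0.003), and *Tfap2c* higher without KO replicate 1 of D0 (1.18, FDR 6.6e-04).

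Among members other than *Plet1* that had not entered through their D15 levels, *Gata3* differed between KO and wt in its change over time. Its change was lower in KO (-2.0 ± 0.66, edgeR FDR 0.058), beside 17.1% of tested genes called in either direction. The difference of *Cdx2* was -4.49 ± 1.46, given with no test as above, and -1.57 without KO replicate 2 of D0. When the CRISPR control was counted as wt, *Gata3* was not called by edgeR, while 2909 of 13192 genes had an unadjusted p under 0.05. *Gata3* also lost the call without wt replicate 1 of D0, either wt library of D15 or KO replicate 1 of D0, at -2.09 to -1.77. Other members gained the call when 1 library was left out, namely *Elf5* and *Krt19* without KO replicate 1 of either day, *Hand1* without KO replicate 1 of D15 (1.14), *Ascl2* without wt replicate 2 of D0 (1.21), *Tfap2c* without KO replicate 1 of D0 (1.14), and *Krt8* (-1.75) and *Krt18* (-1.09) without KO replicate 2 of D15. Of these, *Elf5*, *Krt19*, *Hand1* and *Ascl2* had entered through their D15 levels, so their values are a description with no test.

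At D15, the 3 keratins, *Ascl2* and *Gata3* were called lower in KO *Tsix*-stop EBs and no member higher, against 11.0% of tested genes called lower. *Plet1*, given above, was also called lower, but was listed for its D0 difference in the same line. Since the members were chosen with earlier results of these data known, the comparison with all genes describes this list only. *Krt8* was at 288 and 311 CPM in wt, 46.1 and 180 CPM in KO, with 464 CPM in the CRISPR control (log2 fold change of KO against wt -1.40 ± 0.51, FDR 0.063). *Krt18* was at 679 and 681 CPM in wt, 109 and 339 CPM in KO, with 788 CPM in the CRISPR control (-1.60 ± 0.41, FDR 0.018). *Krt19* was at 217 and 246 CPM in wt, 35.7 and 111 CPM in KO, with 230 CPM in the CRISPR control (-1.66 ± 0.50, FDR 0.034). Each keratin was lower in both KO libraries than in wt and the CRISPR control, and KO replicate 1 was 3.09-fold to 3.92-fold below KO replicate 2.

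*Ascl2* was at 9.12 and 10.6 CPM in wt, 3.15 and 4.01 CPM in KO, with 4.79 CPM in the CRISPR control (-1.46 ± 0.38, FDR 0.021). *Gata3* was at 22.5 and 20.4 CPM in wt, 3.77 and 13.0 CPM in KO, with 24.6 CPM in the CRISPR control (-1.36 ± 0.47, FDR 0.052). For *Ascl2*, as for *Plet1*, the CRISPR control was below both wt libraries, while for *Gata3*, *Krt8* and *Krt18* it was above both.

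*Tfap2c* had higher values in KO, with 73.0 and 78.4 CPM in wt, 133 and 146 CPM in KO, with 126 CPM in the CRISPR control (0.88 ± 0.23, FDR 0.020), a difference under 2-fold. *Cdx2* was at 5.47 and 6.59 CPM in wt, 0.612 and 2.58 CPM in KO, with 5.27 CPM in the CRISPR control, and did not pass (-1.92 ± 0.99, FDR 0.16). *Hand1* was at 92.5 and 84.5 CPM in wt, 23.8 and 80.6 CPM in KO, with 121 CPM in the CRISPR control (-0.76 ± 0.43, FDR 0.20). *Elf5* was the member whose groups overlapped, at 8.27 and 6.45 CPM in wt libraries, 6.70 and 16.4 CPM in KO libraries and 28.4 CPM in the CRISPR control (0.65 ± 0.47, FDR 0.31).

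For 9 of 10 members the KO and wt libraries of D15 did not overlap, beside 74.4% of all tested genes. Without KO replicate 1 of D15 the difference was -0.73 for *Krt8* and -0.72 for *Gata3*, both under 2-fold, and -1.0 for *Krt18* (FDR 0.0029), -1.06 for *Krt19* (FDR 0.084) and -1.29 for *Ascl2* (FDR 0.088), and *Elf5* was called higher (1.16, FDR 0.074). *Krt8*, *Krt19*, *Ascl2* and *Gata3* lost the call without wt replicate 2 of D15 (FDR 0.11 to 0.18), and *Krt8* and *Gata3* also without wt replicate 1 of D15 (FDR 0.15 and 0.17). *Hand1* (-1.86, FDR 2.4e-04) and *Cdx2* (-3.27, FDR 0.069) were called lower without KO replicate 2 of D15, and *Cdx2* also without either KO library of D0 (FDR 0.032 and 0.034). When the CRISPR control was counted as wt, 3 members were called at D15, *Krt18* (-1.68, FDR 0.043), *Krt8* (-1.65, FDR 0.086) and *Gata3* (-1.43, FDR 0.067), while *Plet1* was at -1.22 (FDR 0.31). DESeq2 did not call *Krt19* (-1.67, adjusted p 0.13) and called *Cdx2* lower (-1.93, adjusted p 0.076), as did the fit without a filter on low counts (-1.88, FDR 0.095).

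In E8 cells, *Cdx2*, *Elf5* and *Gata3* passed the filter on low values (2.5 TPM in 2 libraries) through the KO libraries alone, so their place among the tested genes already depended on a high KO level, and their differences from wt are a description with no test. Of the 7 other members, 4 were called higher in KO at D7 (11.4% of 12452 tested genes were called higher), *Hand1*, *Krt8*, *Krt18* and *Krt19*, and 1, *Ascl2*, lower (6.18% called lower). At D15 the same 4 were called higher (7.67% of genes) and none lower. The KO and wt libraries did not overlap for any member on either day, as for 90.5% of all tested genes at D7 and 87.2% at D15, since replicates of this line lie so close together.

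*Cdx2* was at 0.212 and 0.0903 TPM in wt and 6.38 and 7.46 TPM in KO at D7, and at 0.232 and 0.187 TPM in wt and 35.9 and 34.1 TPM in KO at D15. *Hand1* was at 4.59 and 4.55 TPM in wt and 47.9 and 50.2 TPM in KO at D7, and at 2.82 and 3.05 TPM in wt and 157 and 160 TPM in KO at D15. Both factors were thus low in wt EBs of either day, and their KO levels were higher at D15 than at D7. On the log2(TPM + 1) scale the KO difference of *Hand1* was 3.17 ± 0.043 at D7 (limma FDR 2.9e-09) and 5.34 ± 0.043 at D15 (FDR 7.8e-10), and that of *Cdx2* 2.78 ± 0.087 and 4.89 ± 0.087. Since 1 is added to each value, the scale understates the change of genes near 0 in wt.

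*Elf5* was at 0.815 and 1.05 TPM in wt and 3.49 and 3.44 TPM in KO at D7, and at 0.196 and 0.151 TPM in wt and 16.5 and 17.4 TPM in KO at D15. *Gata3* was at 0.341 and 0.407 TPM in wt and 3.15 and 3.13 TPM in KO at D7, and at 0.485 and 0.374 TPM in wt and 8.73 and 8.42 TPM in KO at D15. Their differences were 1.21 ± 0.077 and 1.59 ± 0.072 at D7 and 3.94 ± 0.077 and 2.74 ± 0.072 at D15.

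The keratins were the highest members of E8 KO EBs. *Krt18* was at 82.5 and 81.1 TPM in wt and 889 and 872 TPM in KO at D7, and at 43.5 and 46.0 TPM in wt and 605 and 608 TPM in KO at D15 (log2 difference 3.41 ± 0.035 and 3.73 ± 0.035). *Krt8* was at 32.5 and 29.1 TPM in wt and 454 and 478 TPM in KO at D7, and at 14.6 and 15.6 TPM in wt and 283 and 277 TPM in KO at D15 (3.88 ± 0.058 and 4.13 ± 0.058). *Krt19* was at 12.3 and 10.1 TPM in wt and 72.8 and 74.8 TPM in KO at D7, and at 3.27 and 3.02 TPM in wt and 71.4 and 76.2 TPM in KO at D15 (2.63 ± 0.083 and 4.17 ± 0.083). All 3 were higher in every KO library than in any wt library, with an FDR of at most 1.0e-07.

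*Ascl2* and *Tfap2c* departed from this pattern. *Ascl2* was at 8.83 and 7.79 TPM in wt and 1.95 and 2.14 TPM in KO at D7 (-1.61 ± 0.12, FDR 6.8e-06), and at 5.35 and 7.10 TPM in wt and 3.82 and 3.71 TPM in KO at D15 (-0.59 ± 0.12, FDR 0.0024, under 2-fold). *Tfap2c* was at 52.2 and 52.9 TPM in wt and 31.4 and 32.1 TPM in KO at D7 (-0.71 ± 0.054), and at 40.3 and 45.4 TPM in wt and 54.4 and 55.4 TPM in KO at D15 (0.35 ± 0.054). Its KO libraries were below wt at D7 and above wt at D15, by less than 2-fold each time.

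**Figure D2:**
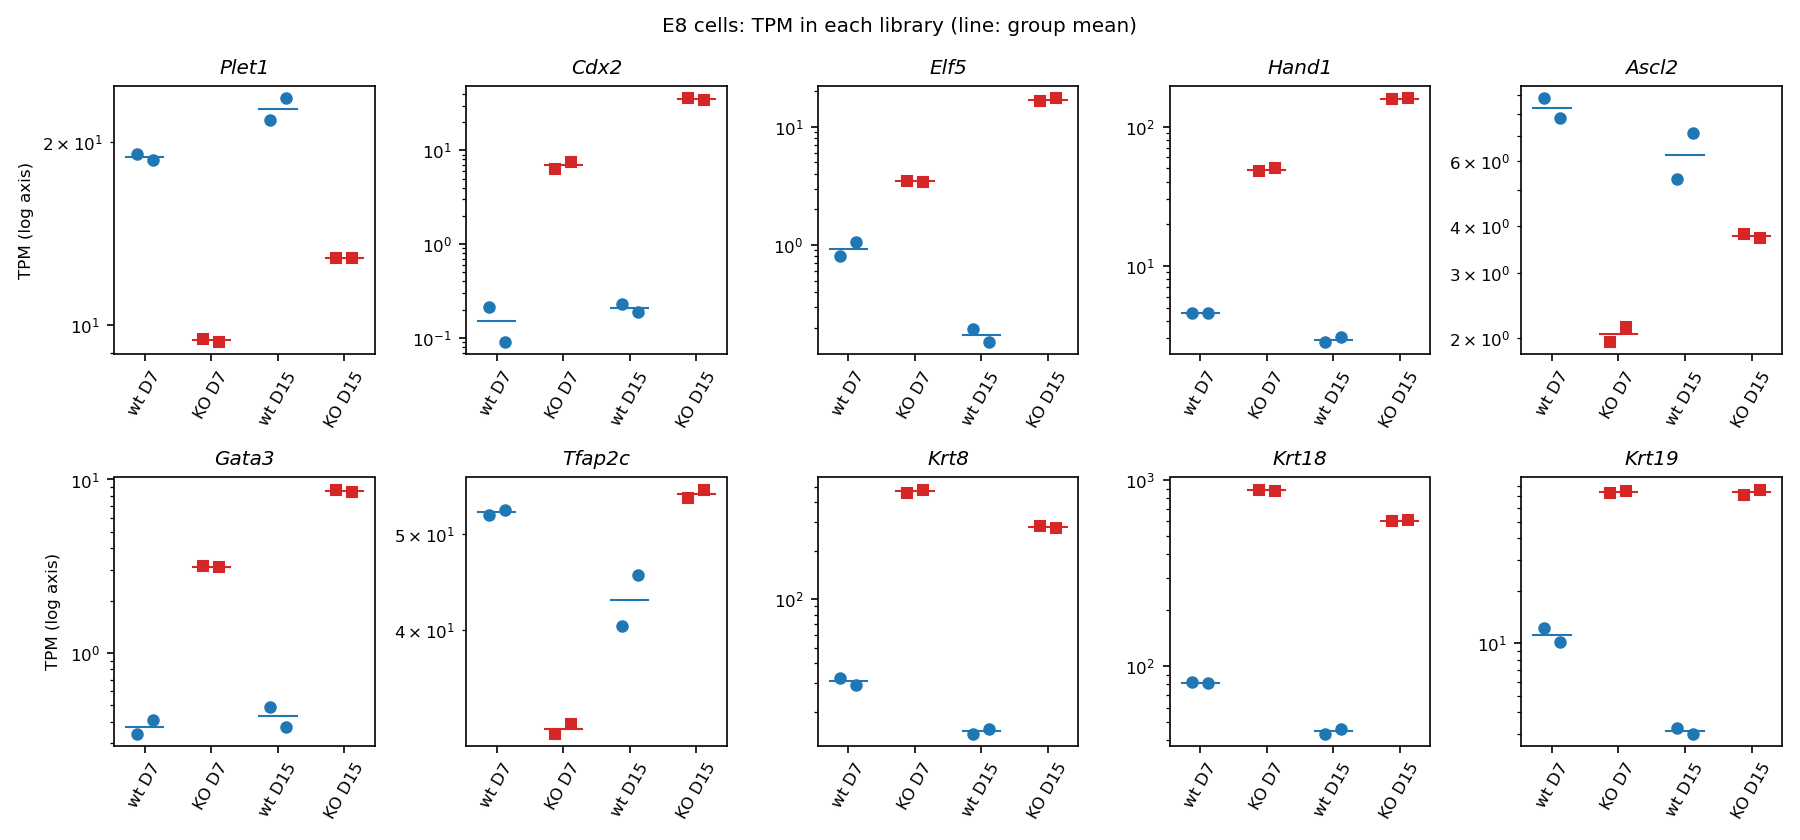
TPM (log axis) of the 10 genes in the 8 E8 libraries at D7 and D15, in panels by gene, with wt in blue circles, KO in red squares and lines for group means. The KO libraries lie above wt for *Cdx2*, *Elf5*, *Hand1*, *Gata3* and the keratins and below wt for *Plet1* and *Ascl2*, and the pair of points in each group is close.

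From D7 to D15, 1 member was called lower in wt E8 cells, *Krt19* (-1.55 ± 0.083, FDR 1.8e-05), against 0.819% of tested genes called lower, and *Krt8* was just under the minimum fold (-0.98 ± 0.058), passing it without wt replicate 2 of D7 (-1.06) or of D15 (-1.03). In KO cells 4 members were called higher, against 3.41% of genes called higher: *Cdx2* (2.19 ± 0.087), *Elf5* (2.01 ± 0.077), *Hand1* (1.67 ± 0.043) and *Gata3* (1.21 ± 0.072), with an FDR of at most 6.8e-06. The 4 factors thus rose with time in KO while the keratins did not. The change over time was called higher in KO than in wt for *Hand1*, *Krt19*, *Tfap2c* and *Ascl2*, against 3.89% of genes called higher. The difference was 2.17 ± 0.061 for *Hand1*, 1.55 ± 0.12 for *Krt19*, 1.06 ± 0.076 for *Tfap2c* and 1.02 ± 0.16 for *Ascl2* (FDR of at most 0.0014). *Elf5* (2.73 ± 0.11), *Cdx2* (2.11 ± 0.12) and *Gata3* (1.15 ± 0.10) were again in the test through KO alone. Their differences are a description with no test. *Tfap2c* and *Ascl2* were near the minimum fold. *Ascl2* went under it without replicate 1 of wt D7 (0.94), wt D15 (0.84) or KO D7 (0.97), and *Tfap2c* without replicate 1 of wt D15 (0.98).

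The KO differences of the 2 lines were not tested against each other. The files hold different units, and the lines also differ in strain, in the deletion and in the number of clones. Side by side at D15, *Hand1* was -0.76 ± 0.43 in *Tsix*-stop and 5.34 ± 0.043 in E8, *Krt18* -1.60 ± 0.41 and 3.73 ± 0.035, and *Plet1* -1.51 ± 0.30 and -0.76 ± 0.046. The wt cells differed as well: at D15 *Krt18* was at 1778 and 1842 TPM in *Tsix*-stop wt libraries and at 43.5 and 46.0 TPM in those of E8, TPM computed here in the first and by the authors in the second.

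**Figure D3:**
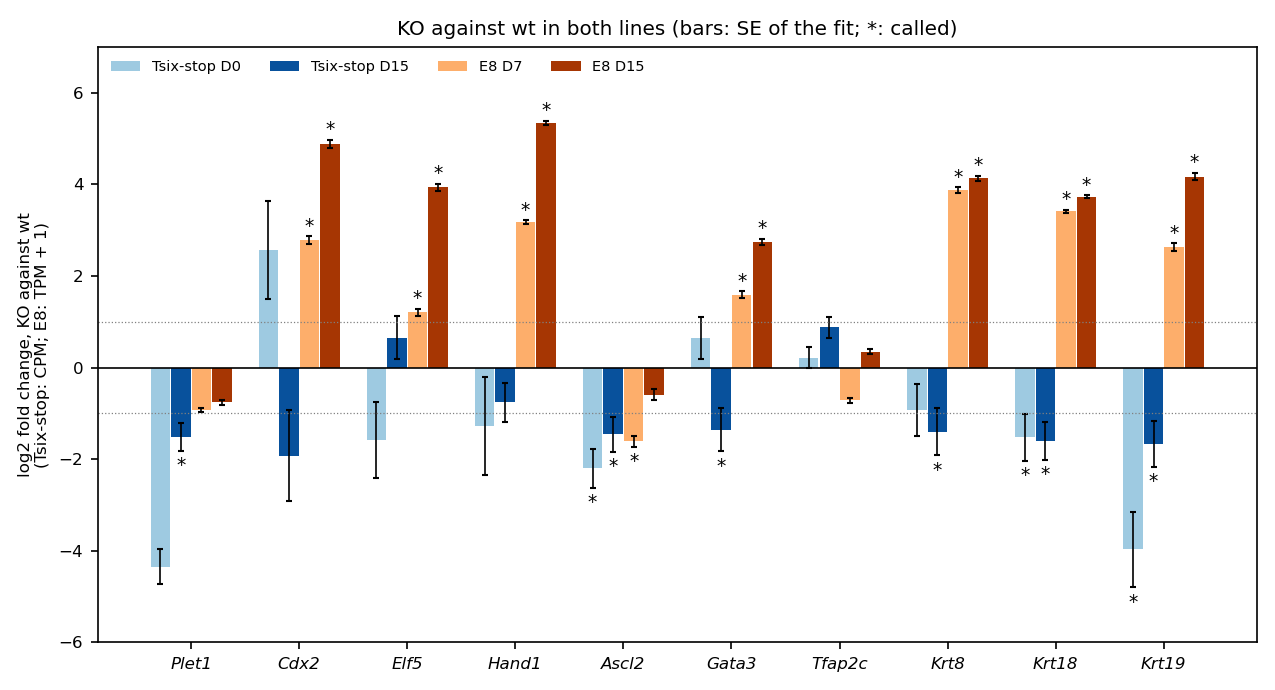
Log2 fold change of KO against wt (bars, with the SE of the fit) for the 10 genes at D0 and D15 in *Tsix*-stop cells (blue) and D7 and D15 in E8 cells (orange and brown), with dotted lines at 2-fold and stars on called values, those of *Cdx2*, *Elf5* and *Gata3* in E8 on genes that passed the filter through KO alone, *Plet1* at D0 being left unmarked because it was listed for that difference. The keratins reach -1.60 (*Krt18*) in *Tsix*-stop and 3.73 in E8 at D15, while *Plet1* and *Ascl2* are below 0 in all 4 comparisons.

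Genes of other lists were called as follows, beside 4.98% and 11.0% of all genes called lower in *Tsix*-stop KO at D0 and D15 and 11.4% and 7.67% called higher in E8 KO at D7 and D15. The medians over all genes given with the first list hold for the others. Genes that passed a filter only through the groups where they are high were counted too, and their calls are a description with no test. Of 15 regulators and receptors of the trophoblast stem state, 12 were tested in each line. In *Tsix*-stop cells at D0, 1 was higher and 4 lower in KO (median log2 fold change -0.46, against -0.0047 over all genes), among them *Gata2* (-2.35 ± 0.53) and the homeobox genes *Rhox6* (-1.70 ± 0.57) and *Rhox9* (-2.17 ± 0.67). At D15 none was higher and 1, *Bmp4*, was lower (median -0.068, against 0.0086). In E8 cells 2 were higher and 2 lower at D7 (median 0.23, against 0.10), the latter being *Rhox6* (-3.06 ± 0.038) and *Rhox9* (-3.05 ± 0.065), and 7 were higher and none lower at D15 (median 1.22, against 0.085), including *Eomes* (2.09 ± 0.041), a T-box factor of trophoblast stem cells and of early mesoderm and endoderm.

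Of 19 genes of differentiated trophoblast, a list that also holds *Ascl2* and *Hand1*, 13 were tested in *Tsix*-stop cells. None was higher and 3 were lower in KO at D0 (median -0.44), and none was higher and 9 were lower at D15 (median -1.30), among them *Gcm1* (-1.05 ± 0.42, FDR 0.085) and *Syna* (-1.5 ± 0.53, FDR 0.058), genes of the syncytiotrophoblast, and the imprinted gene *Phlda2* (-1.23 ± 0.29, FDR 0.013). In E8, 10 were tested, 5 were higher and 2 lower at D7 (median 1.10), and 5 were higher and none lower at D15 (median 0.87). The placental hormone genes *Prl3d1* and *Prl3b1* and the trophoblast gene *Tpbpa* were listed at 0 in every library of *Tsix*-stop D0 and of all E8 groups.

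Of 12 epithelial junction and identity genes, 1 was higher and 4 were lower in *Tsix*-stop KO at D0 (median -0.65) and 3 were lower at D15 (median -0.29). In E8, 11 were tested, 4 were higher and 1 lower at D7 (median 0.14), and 5 were higher and none lower at D15 (median 0.91). Of 45 other keratins in the files, 5 were tested in *Tsix*-stop cells, with 1 lower at D0 (median -1.25), and 2 higher and 2 lower at D15 (median -0.43). *Krt7*, another simple epithelial keratin, was lower in *Tsix*-stop KO at D15 (-1.52 ± 0.42, FDR 0.024) and higher in E8 KO at D7 (2.46 ± 0.12) and D15 (3.47 ± 0.12). Of the 3 other keratins tested in E8, 1 was higher and 1 lower at D7 (median -0.54) and 1 higher at D15 (median 0.14). The epidermal markers *Krt5*, *Krt14*, *Krt15* and *Trp63* summed to at most 5.93 TPM in any library, and none of the 4 was tested.

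Summed markers of other cell types also differed between groups. The summed TPM of 8 endoderm markers was 606 to 712 in *Tsix*-stop wt at D15, 28.0 to 46.3 in KO, with 27.3 in the CRISPR control, and 7 of the 8 were lower in KO. In E8 the sum was 13.7 to 14.8 in wt and 1122 to 1124 in KO at D7, and 7.28 to 7.92 in wt and 239 to 240 in KO at D15, and all 8 were higher in KO on both days. Of these, *Afp*, *Ttr*, *Apoa1*, *Cubn*, *Hnf4a* and *Sox17* passed the E8 filter through KO alone, so their differences are a description with no test. *Afp* changed by -4.85 ± 0.85 in *Tsix*-stop at D15, 7.52 ± 0.04 in E8 at D7 and 5.70 ± 0.04 in E8 at D15. The CRISPR control of D15, a single library, had 27.3 TPM of endoderm markers and 464 CPM of *Krt8*, the latter above both wt libraries. How these values relate was not tested.

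Mesoderm markers (5 genes) summed to 91.4 to 93.5 TPM in *Tsix*-stop wt at D15, 7.39 to 13.0 in KO, with 106 in the CRISPR control, with 4 of 4 tested genes lower in KO. The control's sum was mostly *T*, at 94.2 TPM, while *Hand2* was at 0.907 TPM there, against 59.4 and 62.5 in wt. In E8 the mesoderm markers summed to 12.5 to 13.4 in wt and 53.5 to 53.6 in KO at D7, with 2 higher and 1 lower, and to 3.34 to 4.20 in wt and 96.7 to 99.8 in KO at D15, with 5 of 5 higher. Here *Foxf1*, *Hand2* and *Tbx20* passed the E8 filter through KO alone, so their differences are a description with no test. Fibroblast markers summed to 2455 to 2749 TPM in *Tsix*-stop wt at D15, 196 to 251 in KO, with 111 in the CRISPR control, with 4 of 5 lower in KO. In E8 they summed to 34.2 to 34.3 in wt and 35.0 to 35.5 in KO at D7, and to 22.3 to 23.7 in wt and 47.2 to 48.2 in KO at D15, with 3 of 5 higher and 1 lower at D7 and 4 higher and 1 lower at D15. The higher ones, *Col1a1*, *Col1a2*, *Col3a1* and *Pdgfrb*, passed this filter through KO alone, so their differences too are a description with no test.

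At D0 fibroblast markers summed to 19.9 to 23.2 TPM in wt, 8.47 to 9.83 in KO, with 9.92 in the CRISPR control, with 1 of 5 (*Pdgfrb*, 1.10 ± 0.21, FDR 0.013) higher in KO and 2 lower, among them *Thy1*, at 18.5 and 11.0 TPM in wt and 2.51 and 2.55 TPM in KO. On that day endoderm markers summed to 7.36 to 8.19 TPM in wt and 5.38 to 10.4 in KO, and mesoderm markers to 12.7 to 13.5 in wt and 20.5 to 36.0 in KO. Cardiac markers summed to 120 to 153 TPM in *Tsix*-stop wt at D15, 32.0 to 43.2 in KO, with 26.7 in the CRISPR control, with 4 of 4 tested genes lower in KO. At D0 they were at 38.1 to 45.1 TPM in wt, 6.85 to 8.42 in KO, with 8.47 in the CRISPR control, with 2 of 4 lower, and in E8 they were between 8.61 and 24.0 TPM in all groups, with 1 of 2 tested genes lower at D7 and 1 higher at D15. The 9 trophoblast markers, *Cdx2* and *Elf5* among them, summed to 54.0 to 56.5 TPM in *Tsix*-stop wt at D15, 56.1 to 67.6 in KO, with 88.3 in the CRISPR control, and to 24.7 in wt and 35.4 to 35.5 in KO of E8 at D7 and 11.0 to 11.5 in wt and 98.2 to 99.6 in KO at D15. *Eomes* made up much of these sums, at 29.2 and 27.6 TPM in wt and 46.1 and 44.2 TPM in KO of *Tsix*-stop D15. Of 5 trophoblast markers tested in *Tsix*-stop cells, 1 was lower in KO at D0 and 2 at D15 (median -1.05), and none was higher on either day. The pluripotency markers summed to 1992 to 2225 TPM in wt, 3373 to 3931 in KO, with 2327 in the CRISPR control of *Tsix*-stop D15, and in E8 to 2806 to 3205 in wt and 1349 to 1691 in KO over both days. Of its 4 genes, 2 were higher in *Tsix*-stop KO at D15 and 2 lower in E8 KO at D7. The part of these other cell types in the members' values was not tested, and in bulk RNA fewer cells of a type and less RNA per cell cannot be told apart.

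Reads that cover a SNP between the 2 parental genomes give the allele of origin in *Tsix*-stop cells, a readout that the choice of members did not use. Libraries held 9210225 to 12095548 such reads, and the median gene had 49.6% to 51.6% of them from the non-*cast* allele. *Plet1* had 0 SNP reads in every *Tsix*-stop library, so its alleles were not measured. *Gata3* came almost wholly from the non-*cast* allele at D0, with 57 of 57 reads in wt replicate 1, 56 of 56 in wt replicate 2, 89 of 89 and 82 of 83 in KO, with 75 of 75 in the CRISPR control (95% Wilson intervals with lower bounds of 93.5% to 95.9%). At D15 it was expressed from both alleles, with a non-*cast* share of 60% and 61.1% in wt, 57.9% and 69.5% in KO, with 63.6% in the CRISPR control. *Gata3* shares its place with 2 other genes, as given above. The ES cells had been grown on mouse fibroblasts, whose number was reduced before use and whose strain is not given. Whether reads from fibroblasts entered the D0 shares of *Gata3*, *Krt8* or other members was not tested.

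*Krt8* showed the same order of days with smaller differences. Its non-*cast* share at D0 was 85.7% in both wt libraries, 91.4% and 90.2% in KO, with 85.2% in the CRISPR control, from 27 to 70 reads each, and at D15 it was 56.2% to 60.9% in all 5 libraries, from 719 to 6473 reads. The intervals of the 2 days did not overlap in any library, and those of wt and KO overlapped at D0. At D15 the intervals of the 2 wt libraries lay apart from each other (59.3% to 62.2% and 54.7% to 57.8%). Those of KO were 53.9% to 61.1% and 59% to 62.9%, the second apart from wt replicate 2. *Krt18* was at 58.6% to 60% at D15 and had under 20 reads in each library at D0. *Hand1* was below an equal share at D15, at 38.4% and 39.3% in wt, 44.2% and 46.1% in KO, with 43.2% in the CRISPR control.

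*Krt19* at D15 was between 46.2% and 53.3%, *Elf5* between 43.9% and 53.4% and *Tfap2c* between 46.1% and 57.3% over both days. *Ascl2*, which is imprinted in the placenta, had a non-*cast* share of 64.4% and 67.6% in wt at D15, 53.1% and 55.9% in KO, with 41.7% in the CRISPR control, with intervals of KO and wt that overlapped. *Cdx2* was at 23.1% and 59.4% in the 2 wt libraries of D15, from 52 and 64 reads, so its allelic balance differed between replicates. Intervals cover counting error only, since reads carry no molecular identifiers.

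In E8 the allele columns are TPM scaled to their own total, so only large contrasts can be read. *Plet1* was listed at 31.8 to 80.7 TPM in the *cast* column and at 0 to 0.142 TPM in the BL6 column of every library. *Hand1* was at 16.5 to 58.2 TPM in the *cast* column of KO libraries and at 0 to 0.114 TPM in the BL6 column. *Krt8*, in the same libraries, was at 468 to 971 TPM in the *cast* column and 213 to 399 TPM in the BL6 column. The *cast* column was above the BL6 column in every KO library for the other members too. *Krt18*, for instance, was at 298 to 445 TPM against 84.7 to 155 TPM. How much of the contrast follows from the number and placing of SNPs was not tested.

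**Figure D4:**
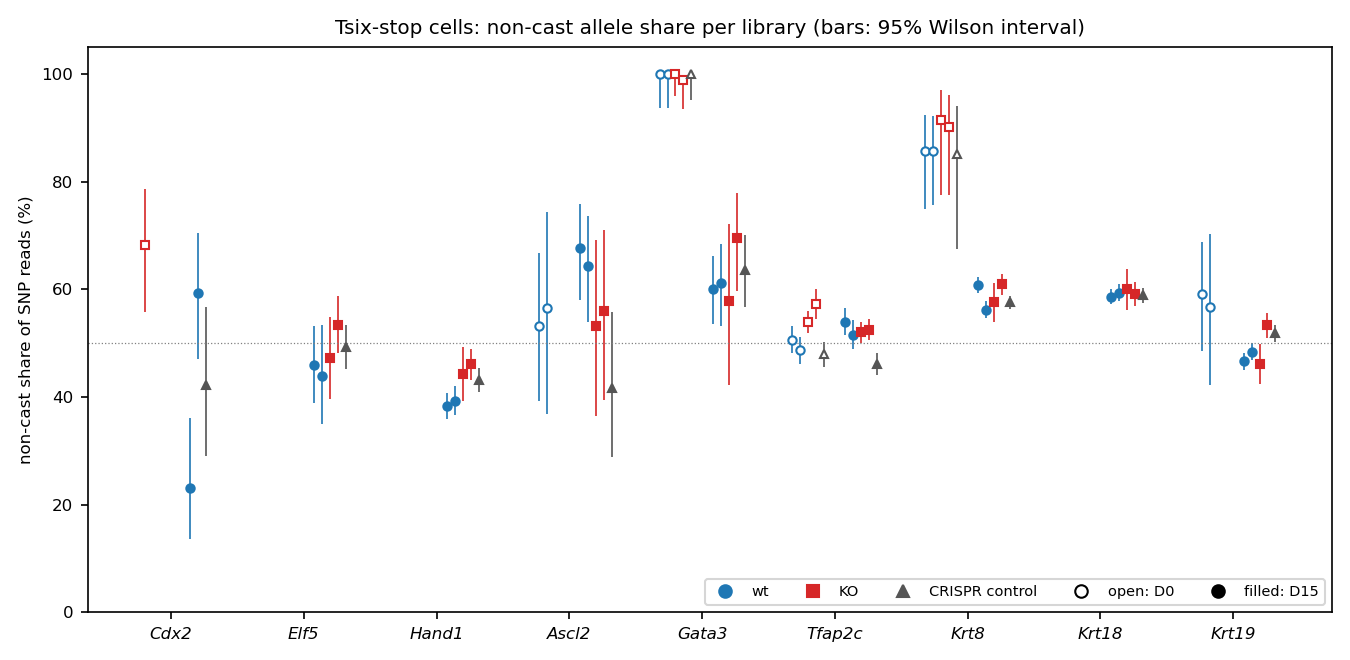
Share of SNP reads from the non-*cast* allele (percent, with 95% Wilson intervals) for 9 of the 10 genes in each *Tsix*-stop library with at least 20 such reads, open symbols for D0 and filled ones for D15, wt in blue, KO in red and the CRISPR control in grey. *Gata3* is at 98.8% to 100% at D0 and 57.9% to 69.5% at D15, and *Krt8* at 85.2% to 91.4% and 56.2% to 60.9%.

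Over the 10 *Tsix*-stop libraries, the genes whose log2(CPM + 1) was most like that of *Plet1* were *Palld* (Pearson r 0.992), *Mbd6* (0.991), *Arhgap8* (0.986), *Anxa6* (0.982) and *Ccdc162* (0.981). Among the members *Ascl2* was nearest to *Plet1* (r 0.956, rank 36 of all genes), followed by *Krt19* (0.909). *Krt8* was most like *Tulp1* (0.997), *Krt7*, *Chdh*, *Wisp1* and *Prss23* (0.996 each), and had *Krt18* at rank 14 (0.994) and *Hand1* at rank 66 (0.989). The libraries share lines and days, so these values describe likeness over 10 points and carry no test.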

How the data were processed

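RNA-seq was done on 10 *Tsix*-stop and 8 E8 libraries. For *Tsix*-stop cells the authors deposited estimated counts per gene, with SNP reads of each allele in columns of their own. Per the labels, processing used Bowtie2 2.4.5 and TopHat2 2.1.1, and 7.10% of the deposited counts were not whole and were rounded. For E8 cells the authors deposited TPM, so depth is unknown, and rows of small RNA genes held 24.8% to 29.8% of TPM. Fields that GEO's labels do not explain were read from the file headers.

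Counts were scaled by TMM and tested with edgeR 4.0.16 (quasi-likelihood, 8 wt and KO libraries in 1 fit, genes at 2.5 CPM in 2 libraries). TPM were tested with limma 3.58.1 (trend, log2(TPM + 1), genes at 2.5 TPM in 2 libraries). FDR is the Benjamini-Hochberg adjusted p over all tested genes, and a call needed an FDR of at most 0.1 and a change of at least 2-fold. Fits ran in R 4.3.3 and tables in Python 3.11.15, and both tests were tested on simulated data. Allele shares needed 20 SNP reads. By the study's methods the *Tsix*-stop wt libraries are biological replicates and the KO libraries come from 2 clones, while E8 has 1 wt control and 1 KO clone, so E8 p-values measure a spread between libraries that may be technical.

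The members and all lists (trophoblast stem state, differentiated trophoblast, epithelial junctions, other keratins, and markers of trophoblast, endoderm, mesoderm, cardiac muscle, fibroblasts, surface ectoderm and pluripotency) were chosen with earlier results of these data known. All 10 members were named, other genes only as called members of these lists, and the 5 genes most like *Plet1* and *Krt8*. Alternatives were DESeq2 1.42.0, other filters, pseudocounts and scalings, a replicate block, the CRISPR control added to wt, and each library left out in turn. Rescaling E8 TPM without small RNA rows was chosen after seeing the data.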

Additional observations from a re-analysis of the deposited data

Results flagged for a closer look

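The change over time differed between KO and wt, by the interaction term of each fit, for 3 members in *Tsix*-stop cells: *Plet1* (2.84 on the log2 scale, larger in KO), *Cdx2* (-4.49) and *Gata3* (-2.0). The value of *Plet1* includes the D0 difference for which it was listed, and *Cdx2* entered the fit through its D15 levels. Both values are a description with no test. In E8 cells the change over time differed by 2.17 for *Hand1*, 1.02 for *Ascl2*, 1.06 for *Tfap2c* and 1.55 for *Krt19*. It also differed by 2.11 for *Cdx2*, 2.73 for *Elf5* and 1.15 for *Gata3*. The latter were in the E8 test through KO alone, so their values are a description with no test. *Cdx2* and *Gata3* thus had interaction terms of opposite sign in the 2 lines.

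The KO libraries of D15 lay on opposite sides of wt in the 2 lines for 6 members, and this difference between lines was not tested. KO and wt libraries of D15 did not overlap for 74.4% of all tested genes in *Tsix*-stop cells and 87.2% in E8. The share of all genes lying on opposite sides was not computed. *Cdx2* and *Hand1* were not called in *Tsix*-stop cells (edgeR FDR 0.16 and 0.20), and *Cdx2* and *Gata3* passed the E8 filter through KO alone. The log2 fold changes in *Tsix*-stop and E8 cells were -1.92 and 4.89 for *Cdx2*, -0.76 and 5.34 for *Hand1*, -1.36 and 2.74 for *Gata3*, -1.40 and 4.13 for *Krt8*, -1.60 and 3.73 for *Krt18*, and -1.66 and 4.17 for *Krt19*.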

How the results depend on the processing

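Of 800 values of members with 1 library left out, 733 kept their direction and side of the threshold, 29 lost and 24 gained a call and 14 turned direction, and of 650 under other alternatives 600 kept both, 11 lost and 35 gained a call and 4 turned. The cause was not tested, except that leaving out a library or adding the CRISPR control changes the samples. When the CRISPR control was counted as wt, members called in *Tsix*-stop cells went to 0 at D0, 3 at D15 and 0 for the difference in change over time, and *Elf5* turned to -0.31 at D15. Without a filter on low counts 5 members differed in change over time, and *Tfap2c* over time in wt was -0.044. In wt E8 cells over time, 3 members were called with a pseudocount of 0.1, 8 with no minimum fold and 2 after rescaling without small RNA rows, and in KO 9 with no minimum fold. *Krt19* over time in E8 KO was 0.018 with TMM-type scaling and 0.085 after that rescaling.

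The counts of members here include *Plet1* at D0 and over time, and members that passed the filter through KO alone or through their D15 levels. With 1 library left out, members called ranged from 2 to 6 at D0 and 2 to 8 at D15 in *Tsix*-stop cells, 8 to 9 over time in wt, 7 to 9 in KO and 1 to 6 for the difference in change. In E8 they were 8 at D7, 7 at D15, 1 to 2 over time in wt, 4 in KO and 5 to 7 for the difference. In *Tsix*-stop cells at D0, *Cdx2* ranged from -0.35 (without KO replicate 2 of D0) to 3.46 and *Tfap2c* from -0.27 (without KO replicate 1 of D0) to 0.59, and at D15 *Elf5* from -0.11 (without KO replicate 2 of D15) to 1.16. Over time, *Tfap2c* in wt ranged from -0.023 to 0.13, and in KO *Cdx2* from -2.22 to 2.05 and *Gata3* from -1.44 to 0.32. For the difference in change, *Hand1* ranged from -0.60 to 1.14, *Krt8* from -1.75 to 0.20 and *Krt18* from -1.09 to 0.52, with 0.022 without KO replicate 1 of D0. In E8 over time, *Cdx2* in wt ranged from -0.0033 to 0.15, *Gata3* in wt from -2.1e-04 to 0.11 and *Krt19* in KO from -0.047 to 0.046, with 0.019 without KO replicate 2 of D7.

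Same-numbered libraries correlated in their deviations between -0.21 and 0.229 in *Tsix*-stop cells and between -0.162 and 0.116 in E8, with the highest value between KO at D0 and KO at D15 of *Tsix*-stop cells. The labels do not say whether a number marks a clone, and the numbers were not taken as pairs. With the replicate number as a block, 4, 7, 9, 7 and 3 members were called in the *Tsix*-stop comparisons (D0, D15, wt over time, KO over time, difference in change) and 8, 7, 1, 4 and 7 in those of E8. Over all genes, in the same order, 1046, 1994, 4983, 3607 and 2241 were called in *Tsix*-stop cells and 2188, 1340, 177, 766 and 906 in E8. *Cdx2* was called lower with this block in *Tsix*-stop KO at D15 (-2.37, edgeR FDR 0.042).

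Over all genes, calls at D0 and D15 in *Tsix*-stop cells were 1059 and 1948, against 1738 and 3099 without a filter, 2665 and 5864 with no minimum fold and 20 and 1115 with the CRISPR control as wt. Over time they were 4987 in wt, 3618 in KO and 2243 for the difference, against 7713 and 5665 without a filter, 9828, 8525 and 4478 with no minimum fold, and 564 for the difference with the CRISPR control as wt. In E8 they were 2184 at D7, 1338 at D15, 175 and 761 over time and 903 for the difference, against 10558, 9745, 7301, 9451 and 8369 with no minimum fold, and 332 over time in wt with a pseudocount of 0.1. At a minimum of 20 SNP reads 63 allele shares could be given, and 52 at a minimum of 50. The low counts of *Elf5* and *Hand1* at D0, and the unknown depth of E8, limit what can be said of low values.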
